A study of Mus musculus with 7 samples.

Results

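The 77 genes described here encode proteins of the cytosolic ribosome, 46 of the large subunit and 31 of the small subunit. They were taken from the 21176 genes of the deposited table by symbol: every Rpl or Rps symbol of the standard numbered form, with Rplp0, Rplp1, Rplp2 and Rpsa, and without symbols that end in a pseudogene tag. RNA came from follicular dendritic cells (FDCs), stromal cells that hold antigen in B-cell follicles, isolated by FACS from the popliteal lymph nodes of male mice 8 to 12 weeks old that had not been immunized. There were 4 WT samples and 3 Ngfr KO samples, each a pool of nodes from several animals, and the comparison asks what differs in FDCs without Ngfr, the gene of the p75 neurotrophin receptor. The labels name no conditional allele or Cre, so no cell type is given in which the deletion was made, and in pooled, sorted samples fewer cells of a type and less RNA per cell cannot be told apart. SMART-Seq v4 and Nextera XT, a full-length method for small inputs, gave 17244925 to 18873542 reads in WT and 20741770 to 21538400 in Ngfr KO, so depth and genotype cannot be told apart. Ngfr itself had 97, 181, 298 and 298 reads in WT and 84, 104 and 46 in Ngfr KO, with every Ngfr KO value (0.184 to 0.353) below every WT value (0.377 to 1.30).

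Ribosomal proteins assemble with ribosomal RNA into the large subunit, which forms peptide bonds, and the small subunit, which reads the messenger RNA. Their messenger RNAs are short and abundant, and begin with a run of C and T bases called a 5′ terminal oligopyrimidine tract (5′TOP). Through that tract, binding proteins such as LARP1 and the TOR kinase control their translation and stability together. FDCs are long-lived, rarely dividing cells that secrete CXCL13 and display complement-coated antigen to B cells.

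The run of C and T bases can be read in the genome. The 6 members shown all have a run of at least 7 bases, and they cover the range of the changes described below, from the strongest decrease to none. Members without such a run are not shown, among them Rps28, Rps3 and Rpl41, with longest runs of 4, 2 and 3 bases. Of the 77 genes, 57 had an entry in the RefSeq promoter table (build GRCm38.p6). Each line runs 5′ to 3′ from 10 bases before the annotated start through its first 20 bases, and capitals mark the C/T run at the start.
Rps27 (chr3:90213629-90213658, minus strand): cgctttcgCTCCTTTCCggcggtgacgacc
Rplp2 (chr7:141447641-141447670, plus strand): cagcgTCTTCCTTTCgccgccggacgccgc
Rpl38 (chr11:114668570-114668599, plus strand): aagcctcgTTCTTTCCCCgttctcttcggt
Rps18 (chr17:33955646-33955675, minus strand): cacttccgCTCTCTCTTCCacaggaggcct
Rpl15 (chr14:18270967-18270996, minus strand): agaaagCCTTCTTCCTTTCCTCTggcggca
Rps6 (chr4:86857348-86857377, minus strand): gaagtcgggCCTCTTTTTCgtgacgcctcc
A sense-strand run of at least 7 C or T bases that overlapped the 10 bases on either side of the start was present in 31 of the 57 members (54.4%) and in 6070 of 27025 genes in the table (22.5%). Among these 57, the run was present in 11 of 19 members that were lower in Ngfr KO by the test below and in 20 of 38 that did not pass it. The letters CTTTCC on the sense strand, which such a run can contain, lay within 50 bases of the start in 31.6% of members and 5.43% of all genes. The letters CCGGAAG, on either strand, lay there in 22.8% of members and 5.98% of all genes.

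Transcripts of 25 ribosomal protein genes were lower in Ngfr KO and none was higher. The test was limma on log2(value + 1), where the value is the authors' normalised signal, and a gene was called at a Benjamini-Hochberg adjusted p under 0.05 over all 8326 genes tested. All 77 members passed the filter on low values. In the large subunit 13 of 46 genes fell and none rose, with a median log2 change of -0.46. In the small subunit 12 of 31 fell and none rose, with a median of -0.56. Over all genes tested, 34.2% were called, 15.8% lower and 18.3% higher, with a median log2 change of 0.02. At an unadjusted p under 0.05, 25 large and 17 small subunit genes were lower and 0 were higher, where 24.7% of all genes tested were higher. The log2 change was negative in 42 of 46 large and 29 of 31 small subunit genes, and spanned -0.87 to 0.36 and -1.38 to 0.22. In 10 large and 14 small subunit genes the highest Ngfr KO sample was still under the lowest WT sample, which held for 18.3% of all genes tested. All 12 small subunit genes that fell were among those 14, but only 5 of the 13 large subunit genes that fell were among the 10. Over all genes tested, 2608 of the 2844 called in either direction had groups that did not overlap. With edgeR's quasi-likelihood test on the recovered reads, 0 large subunit genes (19 at an unadjusted p under 0.05) and 5 small subunit genes fell, against 6.55% of all genes it tested, and no member rose (2 at an unadjusted p under 0.05), against 8.67%.

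**Figure D1:**
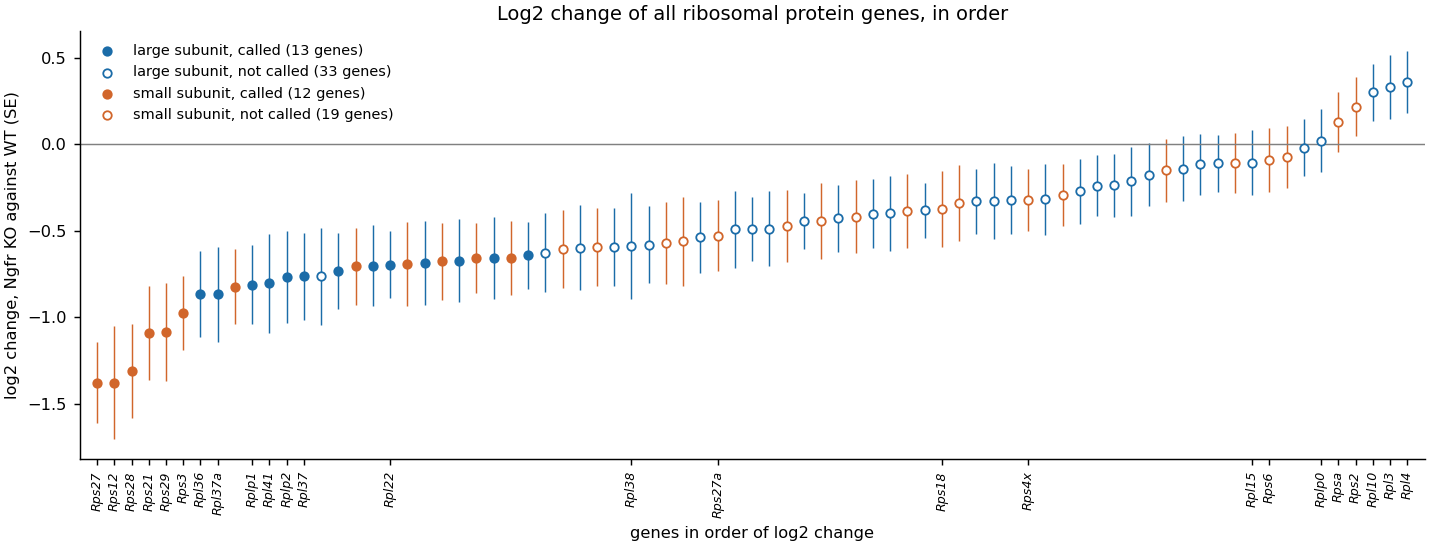
Log2 change (Ngfr KO against WT, on log2(value + 1), with its standard error) of each of the 77 genes, in order, with some of the genes of the text labelled. Filled points passed the limma test: 13 large and 12 small subunit genes, all below 0.

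The number of genes called depended on Ngfr KO replicate 3. In this library the median difference from the WT mean on the log2(value + 1) scale was -0.01 over large and -0.05 over small subunit genes. In Ngfr KO replicate 1 it was -0.59 and -0.72, and in Ngfr KO replicate 2 it was -0.72 and -0.91. Replicate 1 lay below every WT sample in 70 of the 77 genes and replicate 2 in 71, against 32.2% and 36.1% of all genes tested. Replicate 3 lay below every WT sample in 24 genes, within the WT range in 38 and above it in 15, against 27.6%, 34.9% and 37.5% of all genes tested. Replicate 2 was the lowest of the 7 samples in 69 of the 77 genes, against 1882 of all 8326 genes tested. Without replicate 3, 55 of the 77 genes were lower and 1, Rpl4, was higher, against 17.1% and 16.5% of all genes tested. Without replicate 1 the test called 0 large subunit genes (7 at an unadjusted p under 0.05) and 5 small subunit genes. Without replicate 2 it called 0 (6 at an unadjusted p under 0.05) and 4. Over all genes it called 1803 of 8087 without replicate 1 and 1614 of 8064 without replicate 2.

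As a share of the library, ribosomal protein genes took 4.86%, 4.81%, 4.42% and 5.08% of the summed value in WT samples 1 to 4. In Ngfr KO samples 1 to 3 they took 2.88%, 2.66% and 3.73%. By this measure all 3 Ngfr KO libraries were below all WT libraries, replicate 3 included. The summed value that divides the share was 67108 to 75156 in WT. It was 75237, 73058 and 84173 in Ngfr KO replicates 1 to 3. The mean was 4.79% ± 0.275 (SD, n = 4) in WT and 3.09% ± 0.565 (SD, n = 3) in Ngfr KO. Large subunit genes held 2.36% to 2.76% in WT against 1.46% to 2.07% in Ngfr KO. Small subunit genes held 2.07% to 2.35% in WT against 1.20% to 1.66% in Ngfr KO. The small subunit sum divided by the large subunit sum was 0.840 to 0.937 in WT against 0.801 to 0.831 in Ngfr KO, with no overlap. In normalised value, large subunit genes of replicate 3 summed to 1741, within the WT range of 1685 to 1866. Its lower large subunit share therefore rests on its larger summed value. Its small subunit genes summed to 1395, below the WT range of 1552 to 1622.

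**Figure D2:**
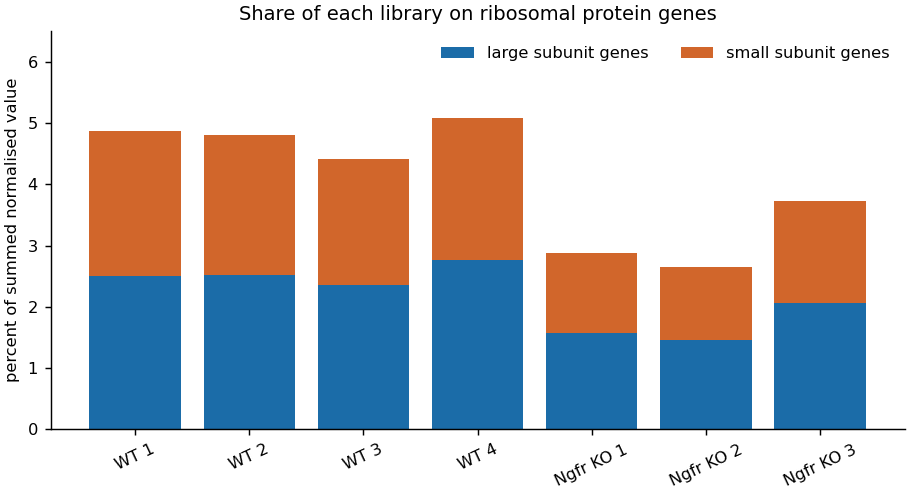
Percent of each library's summed normalised value on large (blue) and small (orange) subunit genes, 1 bar per library. The 4 WT libraries reach 4.42% to 5.08% and the 3 Ngfr KO libraries 2.66% to 3.73%.

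Small subunit genes had the strongest decreases. Rps27, a zinc-finger protein (chr3:90212522-90213651, minus strand, 4 exons in the transcript used), had values of 73.2, 75.8, 69.4 and 71.8 in WT and 23.8, 20.7 and 40.9 in Ngfr KO. No sample of either group overlapped the other, and replicate 3 stood between the WT samples and the other Ngfr KO samples. In log2, Rps27 fell by 1.38 ± 0.23 (SE; limma, adjusted p = 0.0015; edgeR, adjusted p = 0.0078). Only 1.35% of the 50-base stretches of the Rps27 transcript occur in no other gene's transcripts, so reads of near-identical copies may be counted with it. Rps27rt, a retroposed copy outside the 77 genes, fell by 1.30 ± 0.25 (limma, adjusted p = 0.0029).

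Rps28, a small protein near the mRNA exit channel, stood at 56.1, 57.8, 57.4 and 55.8 in WT and at 18.4, 15.3 and 39.0 in Ngfr KO. The WT samples lay close together and all Ngfr KO samples were lower, with a log2 change of -1.31 ± 0.27 (limma, adjusted p = 0.0040; edgeR, adjusted p = 0.021). Rps12 was at 13.6, 14.1, 16.9 and 15.7 in WT and at 2.85, 3.73 and 11.9 in Ngfr KO. Its log2 change was -1.38 ± 0.33 (limma, adjusted p = 0.0079), the edgeR test did not call it (adjusted p = 0.062), and 9.89% of its stretches are unique. In Ngfr KO replicate 1 its log2 difference from the WT mean was -2.06, the lowest of the 77 genes, against -0.31 in replicate 3. Rps21 fell by 1.09 ± 0.27 (limma, adjusted p = 0.010). Rps29, another zinc-finger protein, fell by 1.08 ± 0.28 (limma, adjusted p = 0.013).

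Rps3, which sits at the mRNA entry channel and also has a DNA repair role, followed another pattern. This gene (chr7:99477896-99483738, minus strand, 7 exons in the transcript used) had the highest WT mean of the 77 genes. Its values were 178, 166, 165 and 128 in WT and 84.4, 82.1 and 73.9 in Ngfr KO. Here replicate 3 was the lowest sample of all, and the Ngfr KO samples lay close together. In log2, Rps3 fell by 0.98 ± 0.21 (SE; limma, adjusted p = 0.0055; edgeR, adjusted p = 0.013). Of its 50-base stretches, 97.0% occur in no other gene. Its log2 differences from the WT mean were -0.90, -0.94 and -1.09 in Ngfr KO replicates 1 to 3.

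In the large subunit the strongest called decreases were in Rpl36, Rpl37a, Rplp1, Rpl41, Rplp2 and Rpl37. Rpl36 had values of 38.5, 43.0, 38.3 and 46.0 in WT and 17.99, 16.8 and 36.0 in Ngfr KO. All Ngfr KO samples were lower, but replicate 3 was only just below the lowest WT sample, and the log2 change was -0.87 ± 0.25 (limma, adjusted p = 0.020). Rpl41, with 78 coding bases the shortest of the set (chr10:128548114-128549305, minus strand), had 113, 119, 113 and 121 in WT and 54.6, 46.3 and 115 in Ngfr KO. Replicate 3 lay among the WT samples and the other Ngfr KO libraries far below them (log2 change -0.80 ± 0.29; limma, adjusted p = 0.046; edgeR, adjusted p = 0.14). Rpl38, which is known for its part in translating Hox messenger RNAs, had 30.3, 36.5, 32.2 and 35.8 in WT and 16.6, 14.5 and 43.4 in Ngfr KO. Its Ngfr KO samples lay on both sides of all the WT samples, and it did not pass the test (log2 change -0.59 ± 0.31; limma, adjusted p = 0.15). Over 22 alternatives, the call was lost in 15 for Rpl41, 13 for Rplp2, 9 for Rpl37, 7 for Rpl37a and 4 each for Rpl36 and Rplp1. It was lost in 3 each for Rps21 and Rps29, 2 for Rps12 and 0 for Rps27, Rps28 and Rps3.

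The stalk of the large subunit, which recruits elongation factors, is built from 1 gene product, RPLP0, that carries dimers of RPLP1 and RPLP2. Rplp1 had 42.7, 42.3, 39.9 and 46.0 in WT and 21.3, 17.9 and 35.6 in Ngfr KO. Rplp2 had 31.8, 34.5, 33.0 and 41.8 in WT and 16.1, 14.6 and 34.8 in Ngfr KO. Both fell, by 0.81 ± 0.23 (limma, adjusted p = 0.018) and 0.77 ± 0.27 (limma, adjusted p = 0.043), and only in Rplp2 did the groups overlap. Rplp0, the base of the stalk, had 51.3, 51.8, 54.5 and 58.4 in WT and 55.6, 54.7 and 54.0 in Ngfr KO. Its Ngfr KO samples lay inside the WT range, with a log2 change of 0.02 ± 0.18 that turned negative under 4 alternatives, quantile normalization among them (-0.06). The difference between these stalk genes was not tested.

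A few members were higher in Ngfr KO in value, without passing the test. Rpl4, which lines the exit tunnel, had 32.2, 33.4, 37.7 and 35.2 in WT and 49.6, 46.2 and 38.9 in Ngfr KO. Rpl3, a core protein near the peptidyl transferase centre, had 30.7, 33.5, 40.1 and 39.5 in WT and 45.8, 47.2 and 42.6 in Ngfr KO. With Rpl10 these were the 3 members with every Ngfr KO sample above every WT sample, against 22.6% of all genes tested. Their log2 changes were 0.36 ± 0.18 for Rpl4 (limma, adjusted p = 0.14), 0.33 ± 0.18 for Rpl3 (limma, adjusted p = 0.18) and 0.30 ± 0.16 for Rpl10 (limma, adjusted p = 0.17). Only 14.4% of the stretches of Rpl3 and 7.87% of those of Rpl10 are unique, against 83.5% for Rpl4. Rps2, which lies at the mRNA entry channel, and Rpsa, also known as the laminin receptor, were the only small subunit genes with a positive log2 change, 0.22 ± 0.17 and 0.13 ± 0.17, and these signs turned after removal of the GC and coding length trend. Rps6, whose protein is phosphorylated below TOR, had 49.2, 52.5, 50.4 and 47.4 in WT and 45.5, 41.7 and 53.7 in Ngfr KO, with no call (log2 change -0.09 ± 0.18; limma, adjusted p = 0.72).

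**Figure D3:**
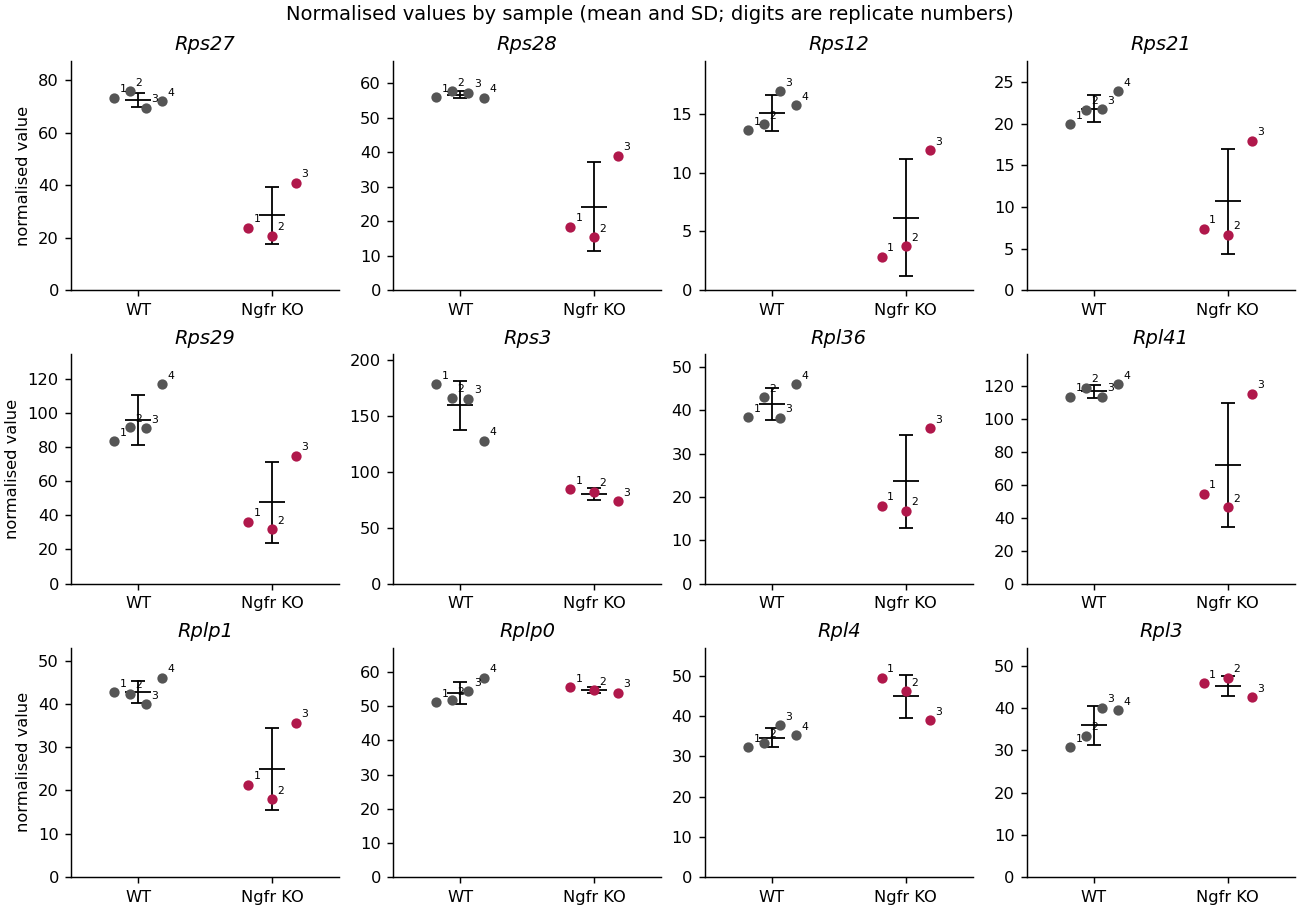
Normalised value in every sample for 12 members, with the group mean and SD (WT n = 4, Ngfr KO n = 3) and replicate numbers. Ngfr KO replicate 3 is the highest Ngfr KO point in the first 5 panels and the lowest for Rps3, and the Rpl4 and Rpl3 points lie above all WT points.

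The size of the change followed the length of the coding sequence. Among the 24 members under 400 coding bases, 19 fell, with a median log2 change of -0.76. Among the 31 members of 400 to under 600 bases, 4 fell (median -0.44), and among the 22 of at least 600 bases, 2 fell, Rps3 among them (median -0.11). The shares lower in these classes were 79.2%, 12.9% and 9.09% of members, against 11.8% of 507, 8.90% of 730 and 9.71% of 3428 other genes tested. Over the 77 genes, Spearman's rho between coding length and the difference from the WT mean was 0.88 in Ngfr KO replicate 1, 0.89 in replicate 2 and 0.39 in replicate 3. These are descriptions across genes of the same libraries, which share depth and the WT mean, and genes are not independent replicates. The relation held apart in each subunit, with rho against the log2 change of 0.88 over 46 large and 0.78 over 31 small subunit genes. Over the 30 members of which at least 50% of the 50-base stretches are unique, rho was 0.75. The relation was weaker for the length of the whole transcript used. There rho against the log2 change was 0.49 over the 77 genes, beside 0.83 for coding length, and 0.27 over these 30 members. Against the differences from the WT mean it was 0.58, 0.57 and 0.11 in Ngfr KO replicates 1 to 3.

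**Figure D4:**
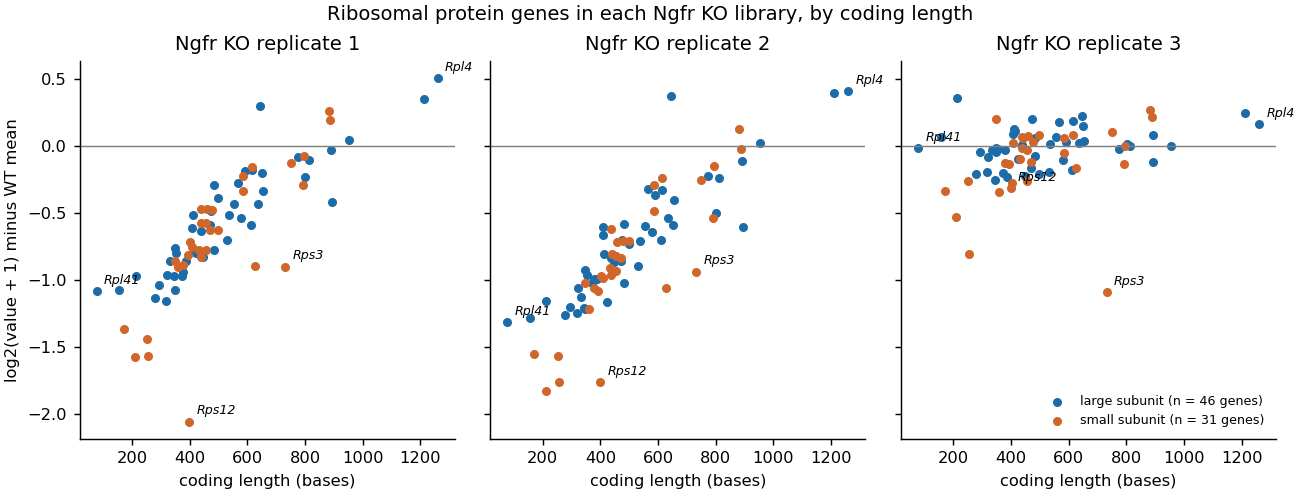
Difference from the WT mean in log2(value + 1) against coding length in bases, 1 panel per Ngfr KO library and 1 point per gene. Points climb with length in replicates 1 and 2 (rho 0.88 and 0.89). In replicate 3 they climb less (rho 0.39) and lie on both sides of 0. Rps3 is low in all panels.

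Outside the 77 genes, the 507 tested genes under 400 coding bases had a median difference from the WT mean of -0.19 in replicate 1, -0.30 in replicate 2 and 0.22 in replicate 3. Over all 7926 other tested genes with a coding length, rho between that length and the difference ran the other way, at -0.18, -0.18 and -0.31, and the 1047 genes of at least 3000 coding bases had medians of -0.28, -0.42 and -0.26. Since the members are abundant, the following values of other genes are only for those with a mean value of at least 10. Over 1060 such genes rho was 0.22, 0.26 and -0.03 in Ngfr KO replicates 1 to 3. Over the 603 of them under 900 coding bases, rho ran the same way as in the members, at 0.45, 0.49 and 0.15. By length class, the 205 such genes under 400 coding bases had medians of -0.44, -0.63 and 0.19. The members of that length class had -0.97, -1.21 and -0.13. Between 600 and 1500 coding bases the 487 other genes had 0.37, 0.35 and 0.36, and the 22 members -0.14, -0.24 and 0.03. In each of the 3 libraries and 3 length classes the members' median was the lower one, a difference that was not tested. Mitochondrial ribosomal protein genes, whose products serve the ribosome inside mitochondria, had medians of -0.13, -0.38 and 0.39 under 400 coding bases (14 genes) and 0.25, 0.32 and 0.34 between 600 and 1500 (38 genes). With the trend along GC content and coding length taken out of every sample over all genes, an alternative chosen after the data had been seen, 25 large and 21 small subunit genes were called. In that setting 2602 of 8003 genes tested were called. The trend was fitted over all genes, whose relation with coding length differed from that of the members. These counts therefore cannot show what remains once the members' own relation with length is removed. Fragment size and RNA integrity of the libraries are not given in the sources used here, and their part in the result was not tested.

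**Figure D5:**
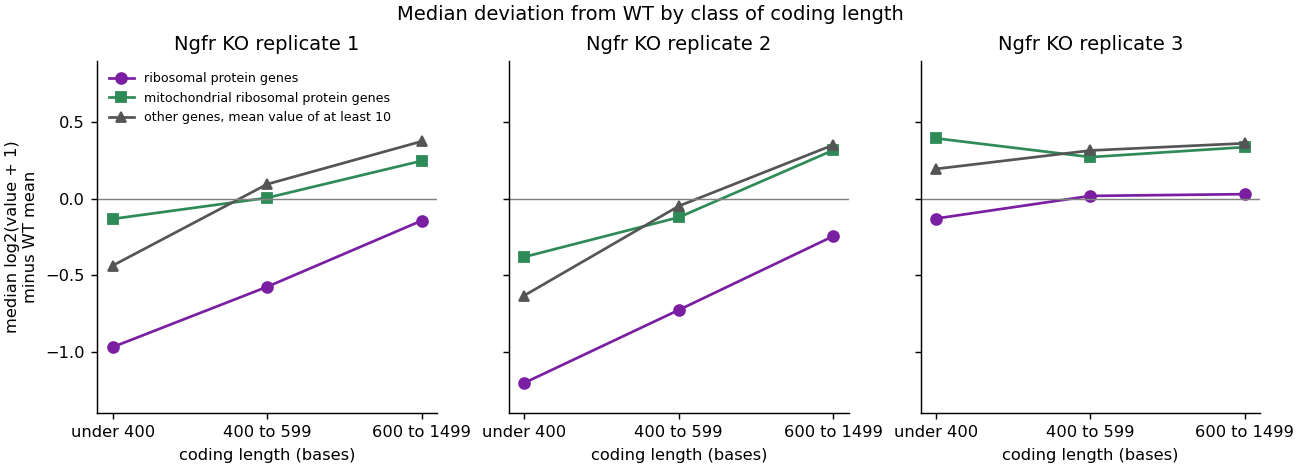
Median difference from the WT mean in log2(value + 1) by class of coding length, for ribosomal protein genes, mitochondrial ribosomal protein genes and other tested genes with a mean value of at least 10, 1 panel per Ngfr KO library. The ribosomal protein line is the lowest in each panel, and all 3 lines climb with length in replicates 1 and 2.

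Other measures that could bear on the cell mixture moved as well. Mitochondrially encoded transcripts held 5.55% to 7.42% of the summed value in WT and 3.14% to 4.97% in Ngfr KO, lowest in replicate 2. Of the FDC markers, 11 of 12 rose, and their summed value was 1811 to 5088 in WT against 7842 to 10367 in Ngfr KO. All 11 tested of 13 endothelial markers fell, with sums of 145 to 250 in WT against 42.9 to 79.2 in Ngfr KO. The B-cell list had 1 of 6 tested genes higher (sums 18.6 to 28.9 and 21.1 to 41.8), the T-cell list 1 of 6 lower (5.98 to 14.6 and 4.21 to 11.8) and the myeloid list 2 of 4 higher (3.54 to 10.8 and 11.02 to 50.1). The reticular stroma list had 2 of 8 tested genes higher and 1 lower (54.4 to 159 and 101 to 130), and the single tested proliferation marker of 12 was higher (1.10 to 3.92 and 5.67 to 18.8). No listed marker was at 0 in all samples of a group. The part of these differences in the ribosomal protein result was not tested.

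Levels per coding length differed widely among the members. In WT, Rpl41 had the highest mean value per kilobase of coding sequence (1495), followed by Rps29 (559) and Rpl37a (415). Reads of a full-length method also come from untranslated parts, so this measure is raised where the coding sequence is a small part of the transcript. Rpl41 has 78 coding bases in a transcript of 437 bases. Rpl5 (2.85) and Rpl12 (6.77) were the lowest, and the median over the 77 genes was 76.8. Of the 50-base stretches of Rpl5 and Rpl12, 51.5% and 51.0% are unique, above the median of 44.5% over the 77 genes. The part of shared reads in these values was not tested. The median coefficient of variation among WT samples was 6.0% over the members and 21.1% over all genes tested. Abundance differed too, with a median WT mean of 35.9 for the members and 2.70 for all genes tested, and its part was not tested.

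Among paralogs outside the 77 genes, Rps4l rose, from 2.37, 3.40, 2.93 and 3.23 in WT to 3.602, 6.34 and 5.40 in Ngfr KO. Its groups did not overlap (log2 change 0.60 ± 0.18; limma, adjusted p = 0.026), while Rps4x, the X-linked member, had no call (-0.32 ± 0.18; limma, adjusted p = 0.18). Rpl22l1, Rpl36al, Rps27l and Rpl7l1 did not pass the test, with log2 changes of -0.25, -0.29, -0.30 and -0.11, and Rpl39l, with 0 to 13 reads per sample, was not tested. Rpl22 itself, which can repress its paralog Rpl22l1, fell from 14.5, 14.6, 13.3 and 13.8 to 7.29, 6.54 and 11.8 (log2 change -0.70 ± 0.20; limma, adjusted p = 0.018). Rps27a, which encodes ubiquitin fused to a ribosomal protein, and Fau, which encodes a ubiquitin-like fusion, missed the threshold with log2 changes of -0.53 and -0.49. For the ribosome-bound scaffold Rack1 the log2 change was -0.01 ± 0.17, and it turned positive under 9 alternatives, up to 0.06.

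Of 25 other genes with 5′TOP messenger RNAs, 4 fell, 3 rose and the median log2 change was -0.01, beside 15.8% lower and 18.3% higher over all genes tested. Tpt1, a growth-related protein, had 57.4, 56.6, 60.9 and 58.7 in WT and 29.4, 29.7 and 44.2 in Ngfr KO (log2 change -0.77 ± 0.20; limma, adjusted p = 0.013). The RNA-binding protein gene Ybx1 had 12.9, 12.1, 9.99 and 10.4 in WT and 4.77, 3.94 and 8.26 in Ngfr KO (log2 change -0.94 ± 0.21; limma, adjusted p = 0.0066). In both, no Ngfr KO sample reached a WT sample and replicate 3 was the highest of the Ngfr KO samples. Eef1a1, the most abundant elongation factor, had 109 to 125 in WT against 116 to 127 in Ngfr KO. Cct5, a subunit of the chaperonin that folds actin and tubulin, rose by 1.02 ± 0.17 (limma, adjusted p = 0.0016).

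Genes that build and serve ribosomes are given by their counts, beside 18.3% higher and 15.8% lower over all genes tested, with no test of the lists. Of 67 tested ribosome biogenesis genes 20 rose (29.9%) and 2 fell (median log2 change 0.26), among them Nmd3, an export adaptor of the large subunit (0.73), and Wdr74 (0.73) upward and Utp20 (-0.47) and Tcof1 (-0.42) downward. Of 10 tested chaperones of ribosomal proteins 3 rose (median 0.30), with Grwd1 at 0.79 and Ltv1 at 0.75. Mitochondrial ribosomal proteins had 13 of 78 higher (16.7%, under the share of all genes) and none lower, with 22 higher and 0 lower at an unadjusted p under 0.05, where 24.7% of all genes tested were higher (limma; edgeR called 12 higher and 0 lower), and Mrps18b (0.78) and Mrps2 (0.66) led. Of 36 initiation factors 8 rose (22.2%) and 2 fell (median 0.12). Eif2s1, a subunit of the factor that brings the initiator tRNA, went from 6.14, 7.90, 8.80 and 5.71 in WT to 15.1, 14.6 and 15.9 in Ngfr KO (log2 change 1.01 ± 0.18; limma, adjusted p = 0.0017). Eif6, which keeps the subunits apart, rose by 0.79, while Pabpc1, the poly(A)-binding protein, and Eif3f fell by 0.66 and 0.56. The call for Pabpc1 was lost in 14 of 22 alternatives. Of 12 elongation and termination factors 3 rose (median 0.35), with Eif5a (0.80) and Eef1d (0.61) in front.

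The remaining lists, of 8 to 21 tested genes, stand beside the same shares of all genes. RNA polymerase I had 3 of 8 tested genes higher and 1 lower, with Polr1e at 0.65, Polr1c at 0.60 and Taf1d at -0.67. The TOR and MYC list had 1 of 21 higher, Tbc1d7 (0.48), and 2 lower, Larp4b (-0.59) and the translation inhibitor Pdcd4 (-0.58). Hosts of small nucleolar RNAs had 2 of 11 lower, Snhg8 (-0.91) and Snhg1 (-0.69). The list of nonsense-mediated decay and ribosome quality control had 3 of 13 lower, with Smg1 (-0.84) and Upf2 (-0.77) in front, and 1 higher, Mdm2 (0.60), the ubiquitin ligase that free ribosomal proteins can bind. The calls of Tcof1 (17 of 21 alternatives), Larp4b (14 of 21) and Snhg1 (10 of 20) were often lost.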

How the data were processed

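The table deposited by the authors holds normalised signal (TMM by its name, a scaling by library size and composition), 1 row per gene. Demultiplexing with bcl2fastq 2.20.0.422 and build mm10 are named per the submitters' processing notes, and the aligner, counter and treatment of reads shared between genes are not given in the sources used here. In every sample 100% of values were whole multiples of 1 step (tolerance 0.01), so reads were recovered, and a value of 1 was worth 230 to 295 reads. Amplified reads are not independent molecules.

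The test was limma 3.58.1 (R 4.3.3, eBayes with trend, two-sided, no covariates) on log2(value + 1) for genes reaching a value of 1 in 3 or more samples, with Benjamini-Hochberg adjustment. The pseudocount understates changes of low genes. On the recovered reads, edgeR 4.0.16 called 2551 genes against 2844 with limma, and DESeq2 1.42.0 was a further alternative. GENCODE M21 (GRCm38) gave transcripts, 1 principal transcript per gene with its coding length, for 21118 of 21176 identifiers. Uniqueness is the share of a transcript's 50-base stretches found in no other gene's transcripts, and 47 members had under 50% unique, so their values are uncertain. On simulated 4-fold changes of 200 genes in the comparison of Ngfr KO with WT, limma recovered 100% with 8.96% false calls of 212 (8192 genes), and edgeR 100% with 3.85% of 208 (16909 genes). The simulation gave every gene the same dispersion and let no library depart as a whole. Its changes were larger than those of the members, so it does not measure recovery or false calls for them.

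Members and lists were chosen with earlier results of these data known. Named genes are the 6 called members per subunit with the largest change each way, members of known role, paralogs and the 2 called genes with the largest change each way per list. Rpl3, Rpl4, Rps2, Rpl38, Rps18, Rpl15, Rpl5, Rpl12 and Eef1a1 were named after their values were seen. Some genes are not reported here. Alternatives were pseudocounts of 0.1 and 5, no filter or a value of at least 10, quantile or median ratio scaling, array weights, robust eBayes without trend, edgeR, DESeq2, thinning to the smallest total, trend removal, a replicate block and leaving out each sample.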

Additional observations from a re-analysis of the deposited data

Results flagged for a closer look

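Of 121 gene levels and library shares examined among the 4 WT samples, 7 had 1 sample set apart by more than Dixon's limit for the gap as a fraction of the group's range, where chance sets apart about 1 in 20, or 6.05. Among the members, Rps16 was at 35.4 in WT replicate 3 and at 40.8 to 41.8 in the other WT samples (gap 0.841 of the range), and Rps24 at 30.9 in the same library against 36.2 to 37.2 (0.849). WT replicate 3 also stood high for Eif3l, at 4.76 against 3.31 to 3.47 (0.889), and for Nmd3, at 6.55 against 3.30 to 3.74 (0.864). WT replicate 2 was low for Pabpc1, at 15.4 against 17.8 to 18.2 (0.861). WT replicate 4 was low for Taf1d, at 5.12 against 8.42 to 8.99 (0.853), and high for Ltv1, at 2.14 against 1.30 to 1.36 (0.918).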

How the results depend on the processing

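The medians of both subunits stayed negative throughout, between -0.64 and -0.31 (large) and -0.84 and -0.36 (small) when 1 sample was left out. The number of large subunit genes called, 13 with all samples, was 0 without a filter (25 at an unadjusted p under 0.05), 8 with median ratio scaling, 8 with that scaling computed without members, 0 with edgeR, 6 with DESeq2 and 5 with the replicate block. It was 25 after quantile normalization, 36 with array weights (34 lower and 2 higher), 24 after removal of the GC and length trend and 25 after removal of the GC and coding length trend. The small subunit count, 12 with all samples, was 4 without a filter, 5 with edgeR, 7 with the replicate block, 20 after quantile normalization, 25 with array weights, 20 after removal of the GC and length trend and 21 with coding length. Counting only members with at least 50% unique stretches, chosen after the data had been seen like the coding length trend, left 6 of 16 and 7 of 14. With the stricter filter 10 of 43 large and 12 of 31 small subunit genes were called, beside 535 of 1297 over all genes tested. Over all genes, 4881 of 8326 were called with array weights, 2847 of 8326 after quantile normalization and 2878 of 8326 with median ratio scaling. With that scaling computed without members it was 2879 of 8326. Without a filter it was 2126 of 21176, and with the replicate block 2717 of 8326. It was 2551 of 16751 with edgeR and 3701 of 16751 with DESeq2. The counts were 2606 of 8319 after removal of the GC and length trend and 2602 of 8003 with coding length. Array weights rested mostly on 1 Ngfr KO library, with 5.03 for replicate 1 against 0.647 and 0.446 for replicates 2 and 3. Leaving out 1 sample gave 0 to 33 large, 4 to 23 small and 1614 to 3006 genes in all. Without WT replicates 1 to 4 in turn the counts were 5, 3, 7 and 4 (large) and 7, 7, 11 and 7 (small). The genes called in all were then 1870 of 8039, 2018 of 8058, 3006 of 8118 and 2610 of 8080. Without Ngfr KO replicates 1, 2 and 3 the counts were 0, 0 and 33 (large) and 5, 4 and 23 (small). The genes called in all were then 1803 of 8087, 1614 of 8064 and 2698 of 8051. The labels do not say whether samples with the same number belong together. Their deviations correlated at 0.298, -0.0593 and -0.0108, against -0.200 to 0.111 for samples with different numbers. Not every sample correlated best with its own number, but the pair numbered 1 had the highest correlation. So few pairs cannot show whether a number stands for something shared. Some log2 changes near 0 changed sign. Rplp0 went to -0.0575 (quantile), -0.20 (GC and length) and -0.23 (GC and coding length) and ranged from -0.0017 to 0.0596 with 1 sample left out, Rpsa to -0.10 and -0.12 under these trend removals, Rps2 to -0.0279 with coding length, and Rpl7l1 ranged from -0.209 to 0.0187 with 1 sample left out. Rack1 went to 0.0599 and 0.0556 with the median ratio scalings, 0.0637 with edgeR, 0.0559 with DESeq2 and 0.0130 with the replicate block, and ranged from -0.0938 to 0.0406 with 1 sample left out. The causes were not tested.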
